A study of Homo sapiens with 18 samples.

Results

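The genes described here are PARP9, PARP10, PARP12, PARP14, DTX3L, PARP1 and PARP2. They were chosen by name: the rows of the 2 deposited expression tables whose gene column equals one of these symbols. All 7 were found in both tables, out of 16410 genes listed in at least 1 of them (14308 in the MDA-MB-231 table and 14768 in the T47D table). The rule reads symbols alone and no measured value. The genes, and the gene lists set beside them, were nevertheless chosen with earlier results of these data known. Counts of called genes among them are therefore descriptions.

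PARP proteins are enzymes that use NAD+ to attach ADP-ribose to proteins and nucleic acids, a mark that other proteins read and that hydrolases remove. PARP1 and PARP2 are the family members known for binding broken DNA, where they build ADP-ribose chains that recruit repair proteins. PARP9, PARP10, PARP12 and PARP14 belong to the branch of the family known as interferon-inducible, and PARP9 works as a complex with DTX3L, an E3 ubiquitin ligase of the deltex family. Interferon receptors act through JAK kinases, which activate STAT proteins. A complex of these with IRF9 binds interferon-stimulated response elements in promoters.

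RNA was sequenced from 2 established human breast cancer lines, MDA-MB-231, which lacks the estrogen receptor (ER-), and T47D, which has it (ER+). Each line gave 3 control libraries labelled as day 0 of doxycycline, 3 libraries labelled as 3 days of G0S2 overexpression and 3 labelled as 15 days, which makes 18 libraries in 6 groups. Doxycycline, the inducer of the introduced G0S2 gene, was used at 0.5 ug/ml, per the labels' growth protocol, which speaks of 15 days and gives no separate dose for day 3. The labels do not name the vector, the promoter of the introduced gene, whether a line is 1 clone, or whether control cells carried the same construct. Cells given doxycycline but lacking the introduced gene were not analysed here. G0S2, doxycycline and vector effects therefore cannot be told apart. Nothing in the labels ties the libraries of a group to separate cultures, and p-values then measure only how far these libraries spread, which may be technical. In bulk RNA, fewer cells making a transcript and less of it per cell cannot be told apart.

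Levels are given as CPM, read counts scaled to a common library size, taken from the deposited log2 values. Depth ran from 37.0 to 52.4 M reads per library for MDA-MB-231 and from 40.1 to 51.0 M for T47D, so that the least abundant of the 7 genes, PARP10, still rested on 350 to 826 reads per library. G0S2 checked the labels: it lay at 25.1 to 25.6 CPM in the MDA-MB-231 controls and at 1103 CPM or more in every induced library of that line, and at 0.343 to 0.966 CPM against 735.9 CPM or more in T47D. These values combine introduced and endogenous transcripts. All 6 T47D identity genes were listed in T47D. ESR1, PGR and FOXA1 were not listed in MDA-MB-231, whereas GATA3, KRT8 and KRT18 were, with control means of 17.7, 375 and 388 CPM. VIM and AXL were listed in MDA-MB-231 alone, and CD44 in both lines (11.1 CPM in T47D controls). Of 10 leukocyte markers 3 were listed in each line, and CD3E, CD3D, MS4A1, LYZ, ITGAM and NKG7 in neither. Their summed level was 72.5 to 79.6 CPM in MDA-MB-231, nearly all of it CD68. In T47D the controls held 1.5 to 1.96 CPM of these markers, day 3 libraries 1.55 to 2.12 and day 15 libraries 1.81 to 2.24. Of 8 fibroblast markers 2 were listed in T47D, with a summed level that ran from 34.7 to 40.2 CPM in controls, from 33.2 to 36.1 at day 3 and, with COL3A1 lower, from 24.9 to 27.4 at day 15. Identity genes shifted too. In T47D, PGR was lower at day 3 (log2 fold -0.13), and at day 15 PGR (-0.18), ESR1 (-0.16), KRT18 (-0.12) and CD44 (-0.54) were lower and GATA3 higher (0.18). In MDA-MB-231, KRT8 and KRT18 were lower on both days (-0.13 each at day 3, -0.22 and -0.17 at day 15), and at day 15 VIM was higher (0.11) and the fibroblast marker PDGFRB lower (-0.52). The part of these shifts in the results was not tested. One library stood apart from its group: T47D day 15 replicate 2, whose counts differed from those of the rest of its group by 14.5 and 23.6 chi-square units per degree of freedom, against 1.74 to 4.28 for the other T47D pairs. T47D day 15 folds of the 7 genes and of the genes named from lists are therefore given with and without it. For the gene lists this comparison was added after seeing the data. Without it PGR, ESR1, KRT18, CD44 and COL3A1 were still called lower at day 15 and GATA3 higher, and KRT8 was called lower too. Summed markers, shares of the rise kept, the DTX3L to PARP9 ratio and r with PARP9 are given with all libraries.

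The promoters of these genes are shown first, as background, and their part in the changes described below was not tested. On build GRCh38, PARP9 (chr3:122527924-122564577, minus strand) and DTX3L (chr3:122564238-122575203, plus strand) are divergent neighbours, and PARP14 (chr3:122680618-122730840, plus strand) lies on the same chromosome. PARP12 is at chr7:140023744-140063721 (minus), PARP1 at chr1:226360691-226408079 (minus) and PARP2 at chr14:20343582-20357905 (plus), all by GENCODE release 29. Each sequence below is read 5′ to 3′ along the gene, from 60 bases before the RefSeq transcription start to 20 bases into the gene, on RefSeq's GRCh38.p14. Capitals mark a match to the core of the interferon-stimulated response element (GAAA, any 2 bases, GAAA) or to its reverse complement. A RefSeq promoter window was available for 6 of the 7 genes, PARP9 with 2 starts. The gene without one is PARP10, so nothing is said of its promoter.
DTX3L (chr3:122564278-122564357, plus): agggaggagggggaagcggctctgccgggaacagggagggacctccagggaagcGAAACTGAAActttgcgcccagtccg
PARP14 (chr3:122680779-122680858, plus): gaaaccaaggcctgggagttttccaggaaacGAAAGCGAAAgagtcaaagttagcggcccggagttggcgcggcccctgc
PARP12 (chr7:140062932-140063011, minus): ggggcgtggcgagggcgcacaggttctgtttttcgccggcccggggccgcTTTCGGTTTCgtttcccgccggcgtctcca
PARP1 (chr1:226408074-226408153, minus): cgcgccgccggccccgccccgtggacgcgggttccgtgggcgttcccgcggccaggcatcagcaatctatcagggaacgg
PARP2 (chr14:20343575-20343654, plus): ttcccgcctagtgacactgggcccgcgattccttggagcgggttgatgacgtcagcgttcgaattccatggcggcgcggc

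A window of 300 bases, 250 before the start and 50 after it, was searched on both strands for this response element core and for the core of STAT sites, TTCNNNGAA. Of all 35116 such windows in the RefSeq table, 1255 (3.57%) held the first and 2689 (7.66%) the second. DTX3L and PARP9 share 1 match, GAAACTGAAA at chr3:122564332-122564341, because their starts at 122564338 and 122564300 leave 37 bases between them. It lies across the DTX3L start, from base -6 to base 4, and at -41 to -32 of PARP9 on the opposite strand. The other PARP9 start, at 122564784, had neither core in its window. PARP14 holds GAAAGCGAAA at -29 to -20 and, without overlap, the STAT core TTCCAGGAA at -40 to -32. PARP12 holds GAAACCGAAA on the opposite strand at -10 to -1. PARP1 had neither core in its window, and PARP2 had only the STAT core TTCCCAGAA at -154 to -146. These are matches of letters within these windows and no measure of binding.

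**Figure D1:**
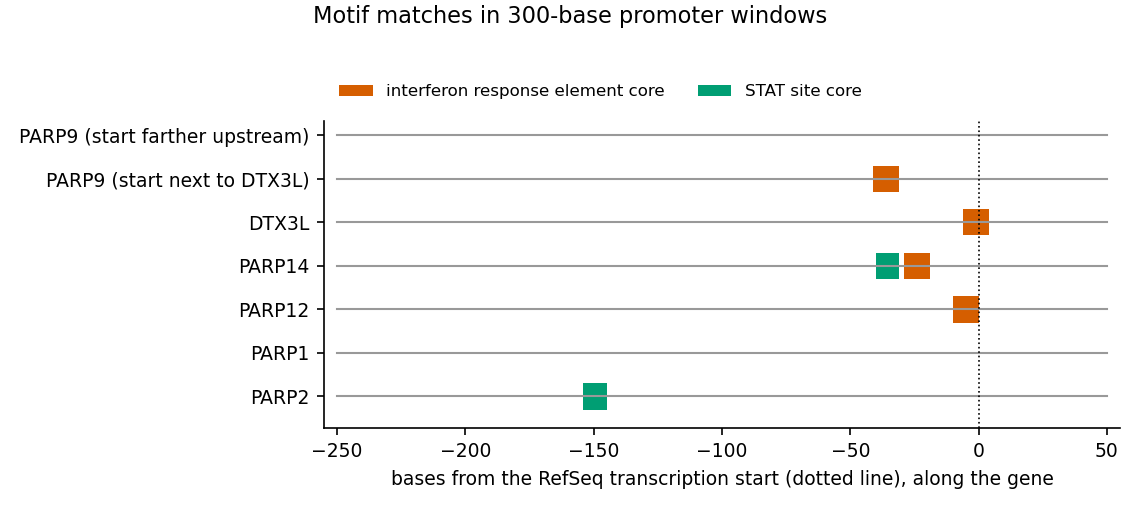
Position of motif matches in the promoter windows, in bases from the RefSeq transcription start (dotted line). Each grey line is 1 window of 300 bases and each block a match on either strand; interferon response element cores lie between 41 bases before and 4 bases after the start in the windows of PARP9 (the start next to DTX3L), DTX3L, PARP14 and PARP12.

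In T47D, the 5 interferon-linked genes rose after 3 days of doxycycline, by 1.92-fold to 3.14-fold, and remained above control at day 15 at 1.26-fold to 1.72-fold. PARP1 and PARP2 did not pass the test at day 3, and PARP1 passed it at day 15 with a 1.13-fold difference. Genes were called in limma where the p-value, adjusted by Benjamini-Hochberg over the whole table, was under 0.05. At day 3, 5 of 7 genes were called, all higher, while 1.16% of all tested genes were called higher and 1.88% were called in either direction. How many of all genes separate the groups without overlap was not counted. Statements on overlap below therefore only describe the libraries.

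PARP9, which has little enzymatic activity of its own and acts through its partner, stood at 32.7, 33.3 and 33.4 CPM in the 3 T47D controls. It reached 86.7, 87.2 and 88.1 CPM at day 3. At day 15 it stood at 58.4, 51.9 and 58.1 CPM. The 3 groups did not overlap, with day 3 highest and day 15 in between. The log2 fold was 1.40 at day 3 (SE 0.0463, adjusted p = 3.79e-11) and 0.76 at day 15 (adjusted p = 8.43e-08). Without the library that stood apart the day 15 value was 0.81.

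DTX3L, the ubiquitin ligase that pairs with PARP9, showed the largest rise of the 7. Its T47D controls were at 23.8, 23.5 and 22.5 CPM. Day 3 libraries were at 73.0, 75.3 and 71.1 CPM, and day 15 libraries at 40.9, 40.2 and 38.9 CPM. Again no 2 groups overlapped, and the spread within each was small beside the distance between them. The log2 fold was 1.65 at day 3 (SE 0.0435, adjusted p = 2.61e-12). At day 15 it was 0.78 (adjusted p = 2.81e-08) with all libraries and also 0.78 without the one that stood apart. Exons of PARP9 and DTX3L overlap on opposite strands over 217 bases, 2.4% of the PARP9 exon length and 3.7% of that of DTX3L. Whether counting used strand is not given in the sources used here, so reads from those bases cannot be assigned to 1 of the pair.

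PARP14, a large protein with macrodomains that bind ADP-ribose and a transferase domain that adds single units, was at 32.8, 32.4 and 31.8 CPM in T47D controls. It was at 71.1, 72.1 and 73.6 CPM at day 3 and at 52.7, 48.5 and 52.7 CPM at day 15. The order of the groups was that of PARP9, without overlap. The log2 fold was 1.16 at day 3 (SE 0.0429, adjusted p = 1.33e-10) and 0.66 at day 15 (adjusted p = 1.19e-07), or 0.70 without the library that stood apart.

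PARP10, a mono-ADP-ribosyltransferase, was the least abundant of the 7 in T47D. Control libraries were at 8.16, 8.95 and 9.49 CPM, day 3 libraries at 16.8, 17.3 and 18.7 CPM, and day 15 libraries at 11.3, 13.2 and 10.7 CPM. Every day 3 library lay above every other, and the lowest day 15 library lay above the highest control by less than the range of either group. The log2 fold was 0.99 at day 3 (SE 0.0866, adjusted p = 4.03e-06) and 0.40 at day 15 (adjusted p = 0.00824). Leaving out control replicate 1 ended the day 15 call (0.34, adjusted p = 0.0527), and the value was 0.31 without the library that stood apart (adjusted p = 0.00296). PARP10 lies on the minus strand of chromosome 8, and its exons overlap those of GRINA on the other strand over 324 bases, 5.4% of the PARP10 exon length.

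PARP12, a mono-ADP-ribosyltransferase with zinc fingers, was at 13.1, 15.0 and 14.3 CPM in T47D controls. It was at 28.8, 26.6 and 26.0 CPM at day 3 and at 18.5, 18.5 and 16.6 CPM at day 15. The groups did not overlap. The log2 fold was 0.94 at day 3 (SE 0.0685, adjusted p = 4.48e-07) and 0.34 at day 15 (adjusted p = 0.00519), or 0.31 without the library that stood apart.

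PARP1, the main sensor of DNA breaks, was far more abundant. Its T47D controls were at 388.9, 392.2 and 393.8 CPM, day 3 libraries at 422.7, 426.4 and 431.6 CPM, and day 15 libraries at 453.7, 424.9 and 453.9 CPM. Induced libraries lay above all controls on both days, and the day 3 and day 15 groups overlapped through day 15 replicate 2. The day 3 difference of 0.12 (SE 0.0311) missed the threshold (adjusted p = 0.0655), and it passed without day 15 replicate 2 (adjusted p = 0.000198) or day 15 replicate 3 (adjusted p = 0.0307), which enter through the shared estimate of the spread. The day 15 difference of 0.18 passed (adjusted p = 0.0016), and was 0.21 without that library.

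PARP2, which shares the response to DNA breaks with PARP1, was at 38.6, 39.7 and 39.0 CPM in T47D controls. It was at 39.2, 39.9 and 40.5 CPM at day 3 and at 43.8, 37.1 and 43.6 CPM at day 15. Control libraries overlapped with those of either day. Neither difference passed: 0.03 at day 3 (95% interval -0.10 to 0.15, adjusted p = 0.956) and 0.08 at day 15 (95% interval -0.04 to 0.21, adjusted p = 0.434). Without day 15 replicate 2 the day 15 value was 0.16 and passed (adjusted p = 0.00642). That fit called 1676 of all 14768 genes higher and 2029 lower. With all libraries, 6 of the 7 genes were called at day 15, all higher, where 5.0% of all T47D genes were called higher and 11.2% in either direction.

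**Figure D2:**
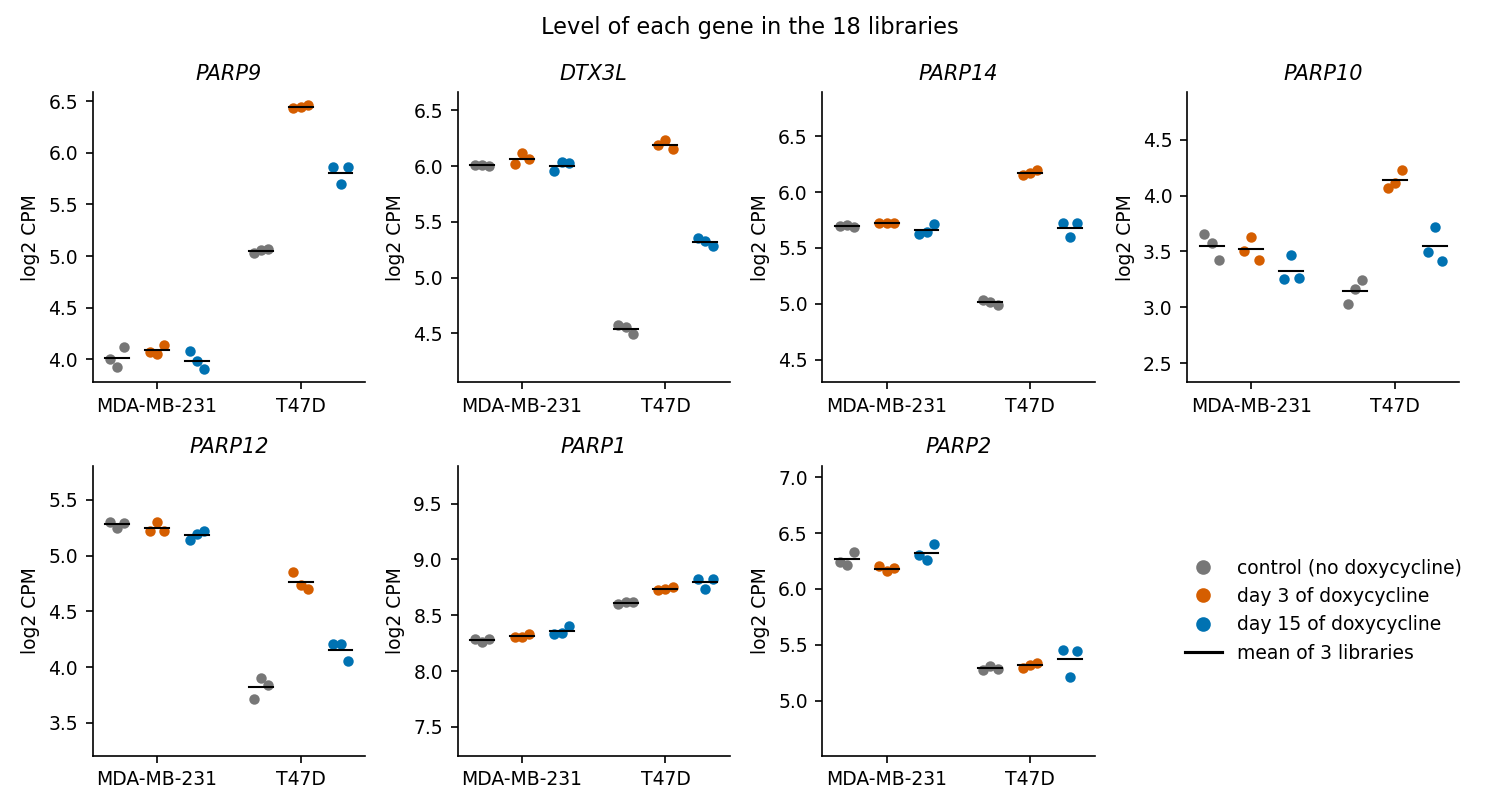
Level of each gene in the 18 libraries (log2 CPM, vertical axes of equal span except for PARP9, whose axis is wider), by line and group, with the mean of 3 libraries as a bar. In T47D the day 3 libraries of PARP9, DTX3L, PARP14, PARP10 and PARP12 lie above all others of that line, whereas the groups of each gene lie close together in MDA-MB-231; levels of the 2 lines come from tables scaled separately.

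From day 3 to day 15 all 5 interferon-linked genes fell in T47D, where 3.35% of all genes were called lower. DTX3L fell by 0.87 on the log2 scale (SE 0.0435, adjusted p = 1.12e-08), PARP9 by 0.64, PARP12 by 0.61, PARP10 by 0.59 and PARP14 by 0.50. The highest of these adjusted p-values was 0.000726, for PARP10. PARP14 kept the largest share of its day 3 log2 rise, 57.3%, followed by PARP9 with 54.2%, DTX3L with 47.3%, PARP10 with 40.2% and PARP12 with 35.8%. These shares have no test of their own and were computed with day 15 replicate 2 included. Without it PARP12 would come before PARP10, by the falls that follow. Without day 15 replicate 2 DTX3L fell by 0.87, PARP9 fell by 0.59, PARP12 fell by 0.63, PARP10 fell by 0.68 and PARP14 fell by 0.46, and all 5 passed again. PARP1 and PARP2 differed by 0.06 and 0.05 between these days and did not pass, except without that library (0.09 and 0.13, adjusted p = 0.0109 and 0.0314). The fit without it called 1143 of all 14768 genes higher and 1461 lower.

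In MDA-MB-231 none of the 5 interferon-linked genes passed the test against control on either day. At day 3, limma called 0 of 7 genes, beside 1.77% of all genes in either direction, and voom on recovered reads called 0 of the 5 as well. Of the 7, only PARP2 had an unadjusted p under 0.05 at day 3 (0.0354), as had 1940 of all 14308 genes. At day 15 only PARP1 was called, beside 8.20% of all genes. An unadjusted p under 0.05 was then found for 2 of the 5 interferon-linked genes, PARP10 and PARP12, and for 3398 of all 14308 genes.

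PARP9 stood at 16.1, 15.2 and 17.4 CPM in MDA-MB-231 controls, at 16.8, 16.6 and 17.6 CPM at day 3 and at 16.9, 15.8 and 15.0 CPM at day 15. DTX3L stood at 64.6, 64.6 and 64.0 CPM in controls, at 64.8, 69.4 and 66.8 CPM at day 3 and at 61.9, 65.5 and 65.1 CPM at day 15. Both genes stayed within a few CPM of their controls. Groups overlapped, except that day 3 libraries of DTX3L lay just above its controls. The 95% interval of the day 3 log2 difference ran from -0.06 to 0.20 for PARP9 and from -0.01 to 0.13 for DTX3L, so that rises of the size seen in T47D lay outside it.

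PARP14 was at 51.8, 52.3 and 51.6 CPM in MDA-MB-231 controls, at 52.7 to 52.9 CPM at day 3, just above them, and at 49.4 to 52.4 CPM at day 15. PARP12 was at 37.9 to 39.5, at 37.2 to 39.4 and at 35.3 to 37.2 CPM in the same order. Day 15 libraries of PARP12 lay just below all controls, with a log2 difference of -0.10 that did not pass (adjusted p = 0.138). PARP10 was at 12.6, 11.95 and 10.7 CPM in controls, at 11.3, 12.4 and 10.7 CPM at day 3 and at 9.52, 11.0 and 9.61 CPM at day 15. Its day 15 value of -0.22 (SE 0.0769) missed the threshold (adjusted p = 0.068). It passed without control replicate 3 (-0.29, adjusted p = 0.0207) and without day 15 replicate 2 (-0.29, adjusted p = 0.0151). With a term for replicate number in the fit it passed too (-0.22, adjusted p = 0.0177). By their means, the day 15 groups of all 5 interferon-linked genes are the lowest of the 3 groups in this line, with 64.2 CPM for DTX3L and 15.9 CPM for PARP9 the closest to control. The day 15 differences of PARP9 (-0.029, adjusted p = 0.82) and DTX3L (-0.0059, adjusted p = 0.941) changed sign on leaving out single libraries.

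PARP1 was at 311.5, 305.9 and 312.6 CPM in MDA-MB-231 controls, at 315.4, 315.4 and 322.6 CPM at day 3 and at 322.3, 324.9 and 338.0 CPM at day 15. Induced libraries lay above all controls on both days, by a few percent of the level, and the day 3 and day 15 groups overlapped. The day 15 log2 difference was 0.08 (SE 0.024, adjusted p = 0.03), a 1.06-fold rise. The call was lost without control replicate 1, control replicate 2, day 3 replicate 2 or day 15 replicate 3, with adjusted p up to 0.172. PARP2 was at 75.9, 74.3 and 80.6 CPM in controls, at 73.6, 71.4 and 72.9 CPM at day 3 and at 78.9, 76.7 and 84.5 CPM at day 15. It was higher at day 15 than at day 3 by 0.14 (SE 0.0367, adjusted p = 0.0272), the only one of the 7 called in that comparison, where 5.33% of all genes were called. That call was lost on leaving out any 1 of the day 3 libraries, or day 15 replicate 1 or 3, with adjusted p up to 0.158.

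**Figure D3:**
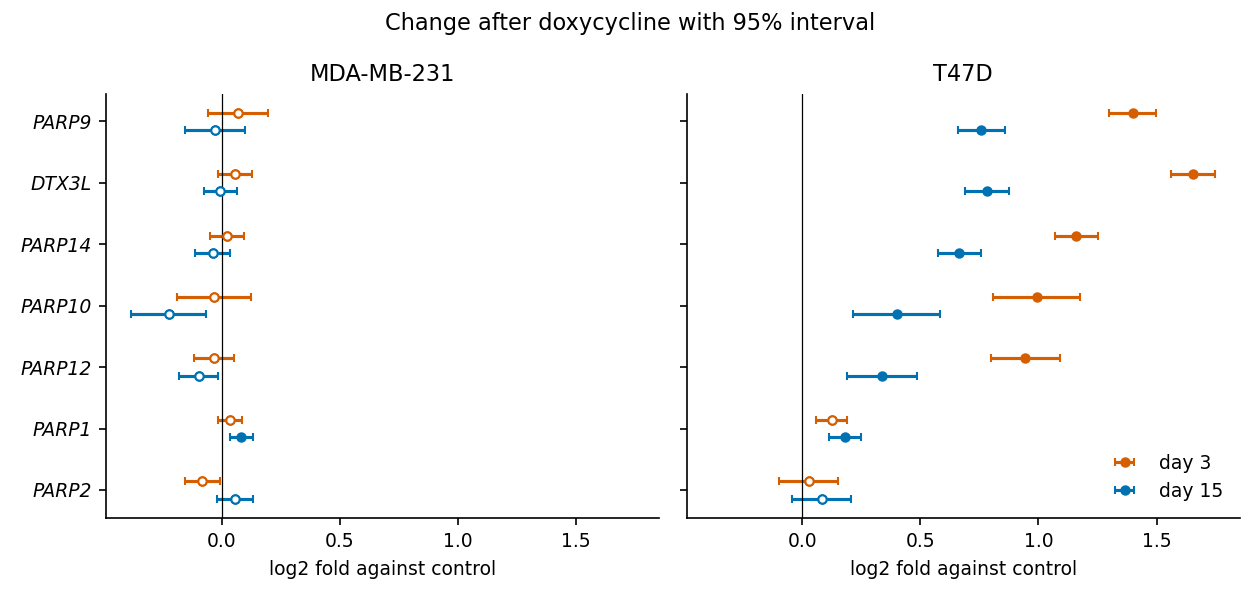
Log2 fold of each gene against control at day 3 and day 15 in MDA-MB-231 (left) and T47D (right), with 95% intervals from the limma fit over the 9 libraries of a line. Filled points passed an adjusted p under 0.05: the 5 interferon-linked genes on both days and PARP1 at day 15 in T47D, and PARP1 alone at day 15 in MDA-MB-231.

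The difference between the lines was tested itself, as the T47D response minus the MDA-MB-231 response over the 12666 genes listed in both tables. At day 3 it was positive and called for all 5 interferon-linked genes, beside 1.41% of shared genes called in that direction. The difference was 1.59 for DTX3L (SE 0.0524, adjusted p = 1.52e-15), 1.33 for PARP9, 1.14 for PARP14, 1.02 for PARP10 and 0.98 for PARP12. At day 15 the same 5 genes were called, beside 4.07% of shared genes, with 0.79 for DTX3L, 0.79 for PARP9, 0.70 for PARP14, 0.62 for PARP10 and 0.44 for PARP12. Without T47D day 15 replicate 2 these were 0.78, 0.84, 0.74, 0.54 and 0.41, and all 5 passed. The differences for PARP1 (0.09 at day 3 and 0.10 at day 15) and PARP2 (0.11 and 0.02) did not pass. That of PARP1 at day 15 passed without T47D day 15 replicate 2 (0.13, adjusted p = 0.00823). Control levels are set side by side here from tables scaled separately and were not tested. DTX3L stood at 64.4 ± 0.336 CPM (SD, n = 3) in MDA-MB-231 controls and at 23.3 ± 0.666 in T47D controls. PARP12 stood at 38.9 ± 0.871 and 14.1 ± 0.951 CPM, PARP14 at 51.9 ± 0.383 and 32.3 ± 0.476 CPM, and PARP10 at 11.8 ± 0.960 and 8.87 ± 0.664 CPM. PARP9 had the other order, with 16.2 ± 1.12 and 33.1 ± 0.422 CPM. At day 3, T47D levels were above the MDA-MB-231 control levels for PARP9, DTX3L, PARP14 and PARP10, and below them for PARP12 (27.2 ± 1.48 CPM).

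Levels of different genes were compared per kilobase of exon, as CPM per kb. The length is the union of all annotated exons, such as 8.94 kb for PARP9 and 5.87 kb for DTX3L. Transcripts in use may be shorter, so the order of genes and their ratios depend on this choice, which the SDs do not cover. In T47D controls PARP1 led with 54.6 ± 0.348 and PARP2 followed with 9.55 ± 0.137. DTX3L (3.97 ± 0.114), PARP9 (3.71 ± 0.0472), PARP14 (3.08 ± 0.0453), PARP12 (2.25 ± 0.151) and PARP10 (1.47 ± 0.110) came below, each without overlap with its neighbour. At day 3, DTX3L (12.5 ± 0.356 CPM per kb) stood above PARP2 (9.73 ± 0.162), and PARP9 (9.77 ± 0.0799) overlapped with PARP2. In MDA-MB-231 controls the order was PARP1 (43.2 ± 0.505 CPM per kb), PARP2 (18.8 ± 0.796), DTX3L (11.0 ± 0.0572), PARP12 (6.18 ± 0.139), PARP14 (4.95 ± 0.0365), PARP10 (1.95 ± 0.159) and PARP9 (1.81 ± 0.125), the latter pair within its spread. Per kb, the ratio of DTX3L to PARP9 was 1.03 to 1.11 in T47D controls and 5.61 to 6.49 in MDA-MB-231 controls.

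The ratio of this divergent pair in CPM was followed in each library. In MDA-MB-231 it was 3.68 to 4.26 in controls, 3.80 to 4.18 at day 3 and 3.67 to 4.35 at day 15. In T47D it was 0.673 to 0.728 in controls, 0.807 to 0.864 at day 3 and 0.670 to 0.775 at day 15. Day 3 libraries of T47D lay above the controls without overlap, by 0.25 on the log2 scale, and day 15 libraries overlapped with the controls. An exact two-sided permutation test of 3 libraries against 3 gave p = 0.1 at day 3, the smallest that design allows (0.4 after Benjamini-Hochberg adjustment over 4 such tests), so it could not pass. In MDA-MB-231 the ratio differed from control by -0.01 and 0.02 on the log2 scale on the 2 days (exact permutation p = 0.9 and 0.8).

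**Figure D4:**
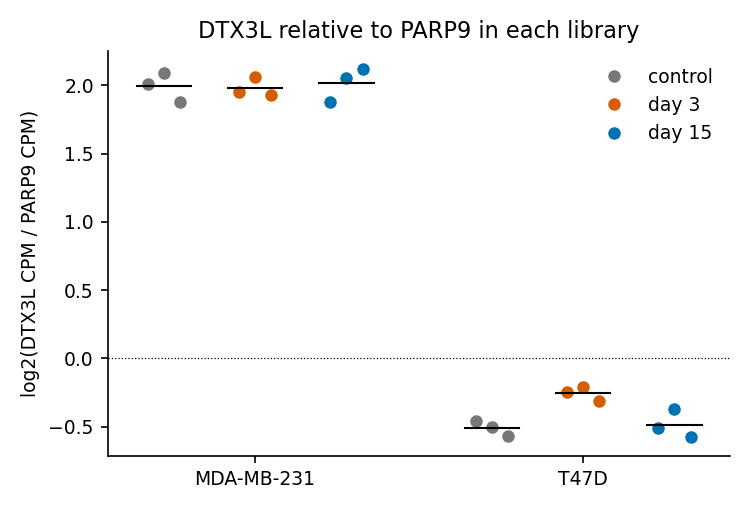
Log2 ratio of DTX3L to PARP9 (CPM) in each library, with the mean of 3 as a bar and equal CPM as a dotted line. Values lie near 2 in all MDA-MB-231 groups and below 0 in T47D, where day 3 is higher than control by 0.25.

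To describe which genes followed the same course, Pearson's r with PARP9 was computed over the 9 libraries of a line, as a description with no test. These libraries form 3 groups, so in T47D r mostly reflects group means. In MDA-MB-231 the PARP9 means of control, day 3 and day 15 were 4.02, 4.09 and 3.99 log2 CPM, with SDs of 0.0992, 0.0445 and 0.0856. There r largely reflects scatter between libraries. In T47D, PARP14 came first of 14767 genes (r = 0.9986), followed by the interferon-induced antiviral genes IFIT1 (0.998), IFIT3 (0.9977), MX1 (0.9973) and DDX60 (0.9971). IFIT genes are paralogs, as are OAS genes, and the authors' counting may split reads among them. DTX3L ranked 17 (0.9916), PARP12 66 (0.9554) and PARP10 73 (0.9456). PARP1 ranked 480 (0.6894) and PARP2 3783 (0.2427). In MDA-MB-231 the closest genes at a mean of at least 1 log2 CPM were SMAP1 (0.9652), CHMP2B (0.9332), TBL1XR1 (0.926), FAM76A (0.9178) and PLEKHH1 (0.9049), none of them from the PARP or interferon lists. There DTX3L had r = 0.0529 with PARP9 and PARP14 had 0.0149.

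The pathway that surrounds these genes moved in T47D as well. Of 44 listed interferon-stimulated genes, 42 rose at day 3, with a median log2 fold of 2.45 against -0.0026 over all genes. The largest rises were those of IFI27 (5.58), OAS1 (5.50), a sensor of double-stranded RNA, and IFI44 (5.09). At day 15, 40 of 44 were higher, with a median of 1.23, and IFI44 (4.82), IFI27 (4.07) and OAS1 (3.82) led. From day 3 to day 15, 39 of 44 fell, with a median of -1.07. Without T47D day 15 replicate 2, 40 of 44 were higher at day 15, with a median of 1.32 and values of 4.88, 4.03 and 3.79 for IFI44, IFI27 and OAS1, and 40 of 44 fell from day 3, with a median of -1.05. That fit called 1676 of all 14768 genes higher at day 15 and 1461 lower from day 3 to day 15. At day 3, DTX3L rose less than 26 of these 44 genes, PARP9 less than 28, PARP14 less than 36, and PARP10 and PARP12 each less than 38. In MDA-MB-231 1 of 44 was higher at day 3 (SAMD9L, 0.22). At day 15 3 were higher, led by SAMD9L (0.25) and IFI44 (0.22), and 4 were lower, led by TRIM22 (-0.65) and IFI27 (-0.25), with a median of -0.01.

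Of 17 interferon signaling genes in T47D, 7 rose and 1 fell at day 3. IRF9, the DNA-binding subunit of the STAT complex, rose by 2.61 on the log2 scale, from 4.73 ± 0.498 to 28.7 ± 0.631 CPM. IRF7, an inducer of interferon genes, rose by 2.09, from 2.30 ± 0.308 to 9.75 ± 0.793 CPM. The kinase JAK1 fell by 0.13. At day 15, 6 of 17 were higher, with 1.62 for IRF9 and 1.13 for IRF7. Without day 15 replicate 2, 7 of 17 were higher and 1 lower, with 1.62 for IRF9 and 0.92 for IRF7. Of all 14768 genes, 1676 were called higher and 2029 lower in that fit. In MDA-MB-231, limma called 0 of 18 at day 3 (2 at an unadjusted p under 0.05) and IRF1 alone at day 15, lower (-0.16, adjusted p = 0.0233). IRF9 was at 12.3 ± 0.268 CPM in MDA-MB-231 controls and 11.97 ± 0.345 at day 3.

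Of 8 other PARP family genes in T47D, 2 rose at day 3. ZC3HAV1, an antiviral RNA-binding protein also called PARP13, rose by 0.41 (adjusted p = 0.000202), from 102.5 ± 3.13 to 136.3 ± 3.43 CPM, and stood at 122.7 ± 10.1 CPM at day 15 (0.26). PARP4, the vault PARP, rose by 0.29 (adjusted p = 0.00498), from 21.8 ± 1.12 to 26.6 ± 0.810 CPM, and on to 33.9 ± 0.475 CPM at day 15 (0.64). PARP4 was thus higher at day 15 than at day 3 (0.35), whereas the 5 interferon-linked genes were lower. TIPARP, also called PARP7, passed at day 15 with 0.20. Without day 15 replicate 2 the day 15 values were 0.32 for ZC3HAV1, 0.64 for PARP4 and 0.21 for TIPARP, PARP16 was called lower (-0.26), and TIPARP also passed at day 3 (0.14). That fit called 1676 of all 14768 genes higher and 2029 lower at day 15, and 333 higher and 413 lower at day 3. PARP8, PARP11 and PARP15 are listed in the MDA-MB-231 table alone. In MDA-MB-231, limma called 0 of 11 at day 3 (2 at an unadjusted p under 0.05) and TIPARP alone at day 15 (0.24, adjusted p = 3.5e-06).

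Genes that work with ADP-ribose are given here by list. Over all genes, limma called 1.88% in either direction at day 3 and 11.2% at day 15 in T47D. In MDA-MB-231 these shares were 1.77% and 8.20%. Of the listed partners of PARP1 and PARP2, limma called 0 of 10 in T47D and 0 of 11 in MDA-MB-231 on either day, with 1 or 2 at an unadjusted p under 0.05 in each comparison. Over all 14768 genes of T47D, 1493 had such a p at day 3 and 3559 at day 15. Among the partners is HPF1, which directs these enzymes to serine (0.05 at day 3 in T47D). Of 11 genes for ADP-ribose removal, ENPP1, an ectonucleotidase, fell in T47D by 0.42 at day 3 and by 0.79 at day 15, and NUDT9, an ADP-ribose pyrophosphatase, rose by 0.39 at day 15. In MDA-MB-231 1 of 11 was called, OARD1 at day 15 (0.16). DTX4, another deltex ligase, rose by 0.66 at day 15 in T47D, while DTX2 and DTX3 did not pass in either line. Of 11 genes of NAD supply and use in T47D, limma called 0 at day 3 (2 at an unadjusted p under 0.05) and 3 were lower at day 15, namely NMNAT1 (-0.41), NMNAT2 (-0.29) and NADK2 (-0.17). Without T47D day 15 replicate 2 the day 15 values were -0.71 for ENPP1, 0.48 for NUDT9, 0.64 for DTX4, -0.46 for NMNAT1, -0.32 for NMNAT2 and -0.16 for NADK2, all called. HPF1 (0.20), the repair polymerase POLB (0.12) and NADK (-0.23) then passed at day 15 as well, and NUDT9 (0.26) and ADPRHL1 (-0.22) at day 3. Calls rose over all genes in that fit. It called 1676 of all 14768 genes higher and 2029 lower at day 15, and 333 higher and 413 lower at day 3. Of 14 genes of NAD supply and use in MDA-MB-231, NAMPT, the rate-limiting enzyme of NAD salvage, was higher at day 15 (0.12) and NADK lower (-0.15).

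**Figure D5:**
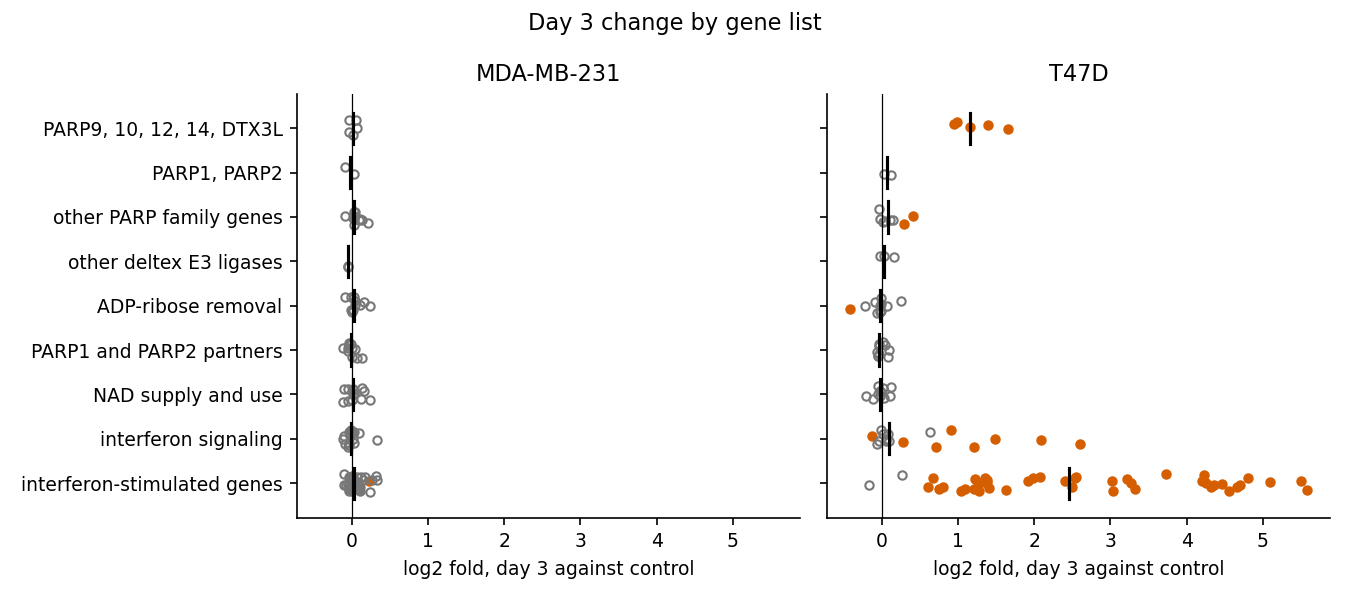
Log2 fold at day 3 of every gene of each list in MDA-MB-231 (left) and T47D (right). Each point is a gene, filled where it passed an adjusted p under 0.05, and the vertical bar is the list's median, 2.45 for interferon-stimulated genes and 1.16 for PARP9, PARP10, PARP12, PARP14 and DTX3L in T47D.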

How the data were processed

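The authors deposited 1 table per line, and its values were read as log2 CPM, the unit being inferred from the values. The submitters' processing notes name STAR, featureCounts, limma and GRCh38.p13. For versions, normalization, the low filter and strand, nothing is given in the sources used here. The series text speaks of parental and Aza-resistant lines, unlike the sample labels, which were followed. Removing 3 reads per gene, scaled by library size, turned each deposited log2 value into a whole read count to within 0.1, so this is the pseudocount (0.0688 CPM in MDA-MB-231, 0.0661 in T47D). A printed CPM is 2 to the power of the deposited value and includes this pseudocount, and log2 folds are on that scale. Each table was scaled separately. limma 3.58.1 (R 4.3.3, statmod 1.5.0) was fitted to the 9 libraries of a line, or to all 18 for the difference between lines, with group means, trend and robust moderation, and adjusted over all genes of the fit. It was tested on simulated data. A chi-square over genes of at least 10 reads found no duplicate libraries. Alternatives were scaling, pseudocount, low filter, moderation, libraries in the fit, voom on recovered reads, a replicate block and leaving out each library (for the lists, T47D day 15 replicate 2 alone, chosen after seeing the data). Exon lengths are unions over GENCODE 29 transcripts, and motifs were searched in RefSeq promoter windows. All 7 genes are named whatever their call, with up to 3 called genes per list and comparison (some are not reported here) and the 5 most like PARP9. The genes and lists were chosen with earlier results of these data known.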

Additional observations from a re-analysis of the deposited data

Results flagged for a closer look

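The response to doxycycline differed between the lines for all 5 interferon-linked genes on both days, by a test of the difference itself (limma, 3 libraries in each of the 6 groups, adjusted over 12666 genes). At day 3 the T47D log2 response exceeded that of MDA-MB-231 by 1.33 for PARP9, 1.59 for DTX3L, 1.14 for PARP14, 1.02 for PARP10 and 0.98 for PARP12, with adjusted p from 1.52e-15 (DTX3L) to 1.1e-05 (PARP10). At day 15 the excess was 0.79 for PARP9, 0.79 for DTX3L, 0.70 for PARP14, 0.62 for PARP10 and 0.44 for PARP12, with adjusted p from 7.91e-10 (DTX3L) to 0.00234 (PARP10). In T47D all 3 induced libraries of each gene lay above all 3 controls on both days, as did those of PARP1. The share of all genes that do so was not counted.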

How the results depend on the processing

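The T47D rises of the 5 interferon-linked genes at day 3 and their falls from day 3 to day 15 kept direction and call under all 17 alternatives (adjusted p up to 0.000951 and 0.0119), and the line differences under all 23 (up to 0.0105). At day 15 in T47D 1 of 85 values, that of PARP10, lost its call, without control replicate 1. PARP1 in T47D at day 3 passed under quantile normalization (adjusted p = 0.0127), library size alone (0.024) and 6 libraries (5.88e-05), and its line difference at day 15 under the same 2 scalings (0.0425 and 0.0314). PARP1 at day 15 and PARP2 from day 3 to day 15 in MDA-MB-231 each lost their call in 6 of 17 alternatives. With a replicate block, genes called were 637 (day 3), 2273 (day 15) and 1788 (day 15 against day 3) in MDA-MB-231, against 253, 1173 and 763, and 511 for day 15 against day 3 in T47D; 1 interferon-linked gene, PARP10, was then called lower in MDA-MB-231 at day 15 (adjusted p = 0.0177). Of 9 same-numbered pairs per line, 4 in MDA-MB-231 and 0 in T47D had r over 0.1, and 8 and 3 had r over 0. Their ranges were -0.03 to 0.28 and -0.41 to 0.07, and those of other pairs -0.26 to 0.19 and -0.27 to 0.39. In MDA-MB-231 6 of 9 libraries correlated best with their own number, and in T47D 0 of 9. The check gave no sign of pairs in T47D and did not settle the question in MDA-MB-231. The main fits used no pairing in either line. Without trend and robust moderation the counts were 63, 232 and 32 in MDA-MB-231 and 549 for day 15 against day 3 in T47D. With 6 libraries in the fit they were 476 (day 3) and 776 (day 15) in MDA-MB-231, and 921, 996 and 463 in T47D. Leaving out 1 library gave 119 to 418, 457 to 1897 and 124 to 1664 genes in MDA-MB-231, 182 to 746, 930 to 3705 and 403 to 2604 in T47D, and 232 to 485 and 860 to 1899 for the line difference, with the highest T47D counts without day 15 replicate 2. It gave 0 to 1 interferon-linked genes lower in MDA-MB-231 at day 15 and from day 3 to day 15. Uncalled values that changed sign had ranges of -0.098 to 0.0191 (PARP10, MDA-MB-231, day 3), -0.0759 to 0.0229 (PARP9) and -0.0207 to 0.0196 (DTX3L) at day 15 in MDA-MB-231, and -0.0163 to 0.104 (PARP2, line difference, day 15). The causes of these shifts were not tested.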
